A study of Mus musculus with 39 samples.

Results

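Of the 39 arrays of this series, 2 arrays had a Ucp1 level below 0 and were selected on that measurement. They were the low fat diet array of Day 10 (LFC Day 10) and the high fat diet array of Week 12 (HFC Week 12). A level is the log2 of the background-subtracted spot intensity minus the 75th percentile of the same array, read from the brightest probe of a gene, so that 0 is the signal of a fairly strong gene on that array. The Ucp1 levels were -3.18 on HFC Week 12 and -3.16 on LFC Day 10. The nearest arrays outside the selection were HF20 Week 15 at 1.48 and LFC Day 1 at 2.83, and the median of the other 37 arrays was 6.23. Each of the low-Ucp1 arrays was set beside the array of the other diet at the same time, which was HFC Day 10 for the first and LFC Week 12 for the second, and beside all other arrays.

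The series measured RNA from brown fat of mice over a course of feeding. Weaned animals of the inbred strain C57BL/6J were given food low in fat (LFC), food high in fat and sucrose (HFC), or HFC food plus the botanical formulation KAL-1, whose doses of 5, 20 and 75 µg are named HF5, HF20 and HF75. The mice were 3 to 4 weeks old when the groups were formed. The labels describe all 4 samples compared here as brown infiltrating macrophages, in parentheses SVCs, the cells of the stromal vascular fraction that is left when fat cells are removed. Each array held 1 diet at 1 time point, and the labels do not say whether RNA of 1 or of several animals was used. The series text speaks of 3 biological replicates, but as grouped here no diet recurs under a time label. Every difference below is thus between single arrays and was not tested. For HF20 Week 12 the title and source name give HF20, but the diet label gives the high fat diet alone. It was grouped as HF20. LFC had 10 arrays, HFC had 11 and each KAL-1 dose had 6.

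Brown fat burns fatty acids to make heat. Its fat cells hold many mitochondria, whose uncoupling protein Ucp1 lets protons flow back across the inner membrane without making ATP, and Cidea, Cox7a1, Cox8b and Elovl3 are commonly read beside it as brown fat genes. Fat of the abdominal cavity is covered by a mesothelium, a single layer of flat cells that carries Wt1, a transcription factor, Msln (mesothelin), a surface protein, and Upk3b, a membrane protein of the uroplakin family. Interscapular brown fat lies outside the body cavity, and its stroma is usually marked by the transcription factors Zic1 and Tbx15.

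The probes below produced the marker values, and are given so that the signal behind each marker can be traced. They are printed in lower case, 5′ to 3′, with no part in capitals. Each is the first 30 bases of the 60-base sequence in the authors' deposited value table. The gene positions are those of RefSeq on GRCm38.p6: Ucp1 lies on chromosome 8 at 83290348 to 83298456, Wt1 on chromosome 2 at 105126529 to 105173614, Msln on chromosome 17 at 25748613 to 25754378, Upk3b on chromosome 5 at 136038496 to 136044993, Krt8 on chromosome 15 at 101996711 to 102004342 and Crisp1 on chromosome 17 at 40293758 to 40319207.
Ucp1, brightest probe: ggaacgtcatcatgtttgtgtgctttgaac
Ucp1, other probe: gctcaaactagtgggaaggaaaaattagtc
Wt1: cactggtaagactgttcttaagtaacttaa
Msln: tgggtaccaggggtcattgccaaagtttga
Upk3b: tcaccaagtgtactggttagagagtgtaaa
Krt8: ccgaggatcagccctaatcctctggccaac
Crisp1: tattgtcctgttggcaattatcaaggaagg

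The promoters of the gene that chose the arrays and of a pair of genes at the other end of the comparison are shown next, because brown fat genes were low together and mesothelial genes high together. Each is the 250 bases before the gene start, on the strand of the gene, from the RefSeq promoter table (GRCm38.p6). Capitals mark 2 motifs searched on both strands, TGACG, the core of the site bound by CREB, and TGACCT, the core site of nuclear receptors, which reads AGGTCA on the other strand. The regions are chr8:83290098-83290347 on the plus strand for Ucp1, chr15:102004343-102004592 on the minus strand for Krt8 and chr5:136038246-136038495 on the plus strand for Upk3b.
Ucp1: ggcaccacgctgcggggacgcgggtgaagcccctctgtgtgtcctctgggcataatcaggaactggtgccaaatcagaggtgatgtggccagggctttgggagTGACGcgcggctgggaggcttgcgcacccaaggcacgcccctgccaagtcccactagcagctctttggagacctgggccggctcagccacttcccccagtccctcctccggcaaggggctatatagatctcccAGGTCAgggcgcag
Krt8: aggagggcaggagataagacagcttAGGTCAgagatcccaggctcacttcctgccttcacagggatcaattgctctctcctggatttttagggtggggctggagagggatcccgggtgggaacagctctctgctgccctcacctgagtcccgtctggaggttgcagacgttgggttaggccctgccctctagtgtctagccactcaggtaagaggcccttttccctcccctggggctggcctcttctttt
Upk3b: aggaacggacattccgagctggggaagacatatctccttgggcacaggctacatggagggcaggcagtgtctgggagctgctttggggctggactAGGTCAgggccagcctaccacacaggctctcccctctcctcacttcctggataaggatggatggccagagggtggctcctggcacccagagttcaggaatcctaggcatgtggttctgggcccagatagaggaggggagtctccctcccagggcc
The Ucp1 window held 1 match of each motif, and the Krt8 and Upk3b windows held 1 match of TGACCT each. Of all 32851 promoters in the table, 17.8% held TGACG and 14% held TGACCT. Among the brown fat heat production genes that were lower in both pairs, 7 had a promoter in the table, in 8 windows, of which 2 held TGACG and 3 held TGACCT. Among the mesothelial genes that were higher in both pairs, 9 had one, in 10 windows, of which 0 held TGACG and 4 held TGACCT. A match is a stretch of letters and was not tied to binding here.

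The arrays differed in brightness and quality. On LFC Day 10, 68.7% of spots were well above background, against 58.3% on HFC Day 10. On HFC Week 12 it was 91.6%, against 74.4% on LFC Week 12. HFC Week 12 was 1 of 3 arrays with over 10% of spots marked as outliers (11.1%), and those spots were left out. Both Day 10 arrays were scanned together on different slides, and the 5 arrays of Week 12 were scanned together as well. LFC Week 12 had 2.57% of its spots saturated, so that 875 of the genes compared had only a lower limit there, and it is 1 of 9 arrays whose titles hold BA or BAT. A fold difference from a saturated or dim value is given below as "at least". Medians, and most log2 differences, take the limit as the value.

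HFC Week 12 did not have the same values in the 2 deposited sources. The authors' value table holds log2 differences from the reference array of the same time. For 24 other columns the table and the scanner files gave nearly the same differences. Their correlation over 40628 probes was at least 0.994 in size (Day 14 with the sign turned). At least 97.9% of probes were within 0.1, counted here and below after the median shift of the column was taken out. For HFC Week 12 the correlation was 0.831, the median shift was 0.70 and 2.93% of probes were within 0.1. Adding the table's difference to LFC Week 12 gave a Ucp1 level of 5.21 in place of -3.18, a Wt1 level of -3.82 in place of 1.46 and a Crisp1 level of -3.01 in place of 3.39, all inside the range of the other 37 arrays. Of the 12 genes read this way 2 stayed above that range, Upk3b at -2.87 against a highest of -3.15 and Krt19 at 0.01 against -0.42. Over the 4803 genes that were well above background on all arrays, these implied levels were most like HF75 Week 12 (r = 0.968), and less like the HFC Week 12 scanner file (r = 0.804). The sources were not told apart here, and everything below about HFC Week 12 describes its scanner file. LFC Day 10 has no such gap: the Day 10 column and the scanner files correlated at 0.999, with 99.2% of probes within 0.1.

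**Figure D1:**
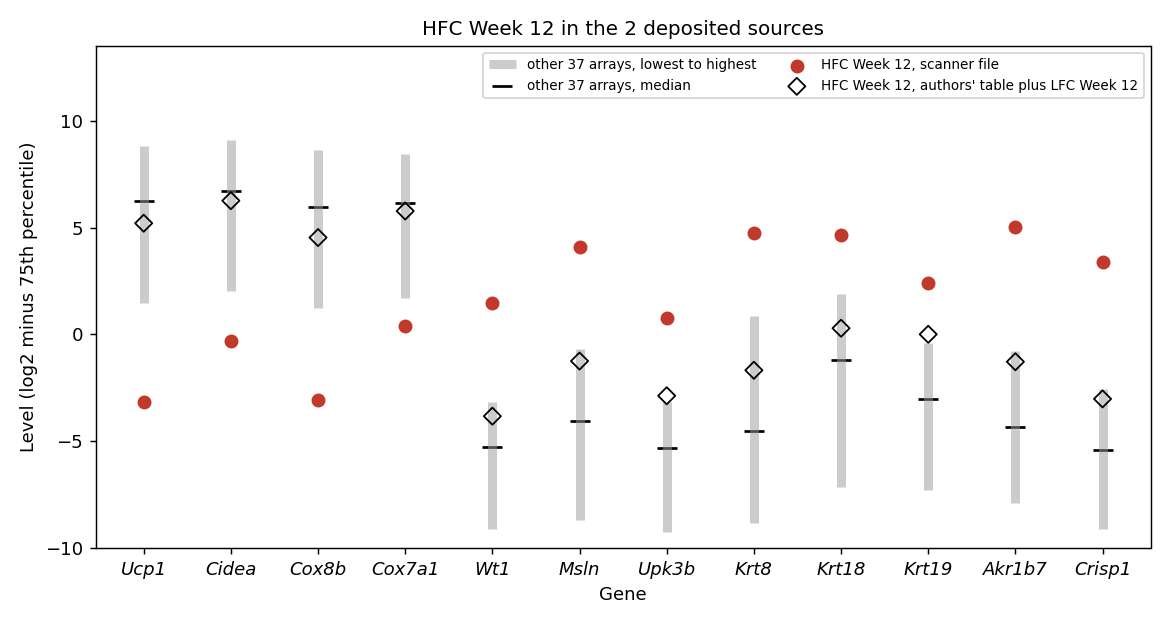
Level (log2 minus the 75th percentile of the array) of 12 genes on HFC Week 12 in the scanner file (red circles) and in the authors' table added to LFC Week 12 (open diamonds), with the lowest to highest level of the other 37 arrays as a grey bar and their median as a line. Ucp1 stands at -3.18 in the scanner file and at 5.21 by the table, and Krt8 at 4.76 and -1.67.

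The label of these arrays as resembling visceral fat takes its name from the genes below. Their values describe the label and are no check of it. Ucp1 was at -3.16 on LFC Day 10 and 5.93 on HFC Day 10, and at -3.18 on HFC Week 12 and 5.80 on LFC Week 12. Wt1 was at 0.57 on LFC Day 10 and 1.46 on HFC Week 12, and it was not well above background on any other array, where the highest reading was -3.15. The second probe of Ucp1 was not well above background on LFC Day 10 and was left out as an outlier on HFC Week 12, while it was well above background on 36 other arrays. Msln was at 3.46 on LFC Day 10 and 4.08 on HFC Week 12. Elsewhere Msln was well above background on 10 arrays, with a highest level of -0.68 on LFC Week 9. Upk3b was at 0.58 and 0.75 on the low-Ucp1 arrays and at most at -3.15 elsewhere. All 3 mesothelial markers were thus high on the arrays where Ucp1 was low, and the low-Ucp1 arrays did not overlap with the rest in any of them. Of all genes compared with the other 37 arrays, 1.84% lay above them on both low-Ucp1 arrays.

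**Figure D2:**
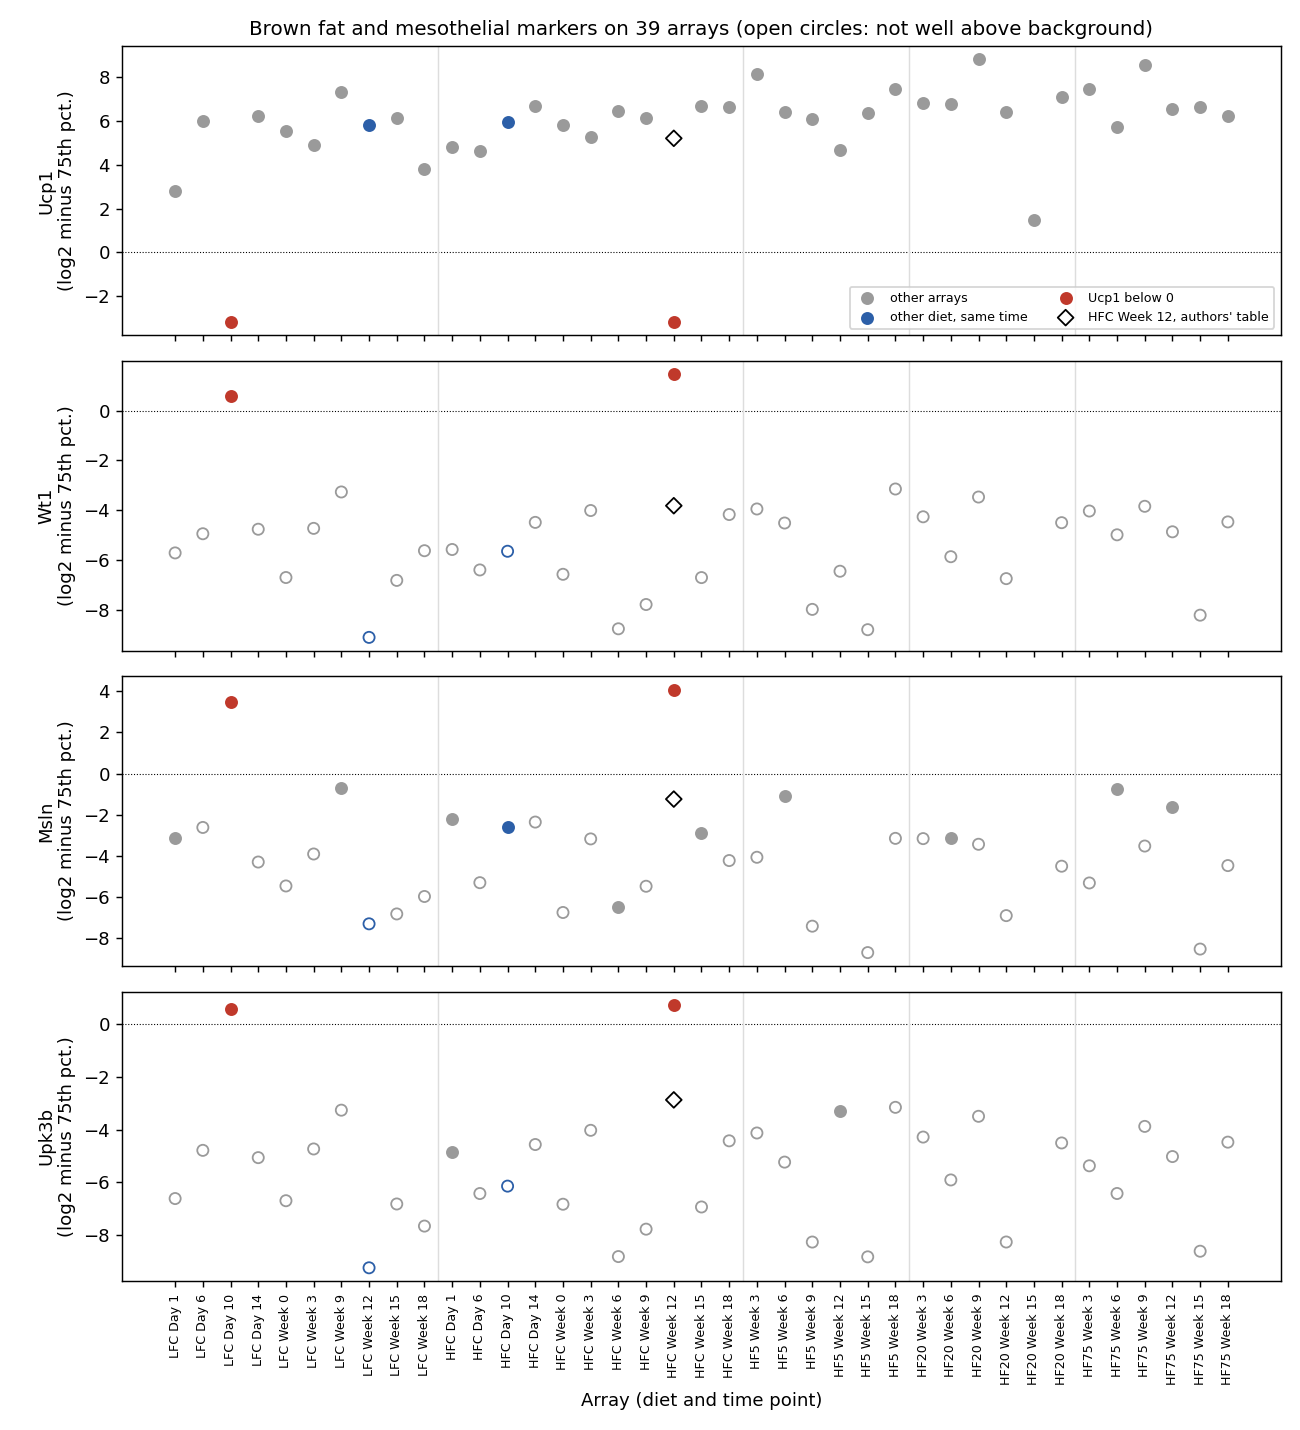
Level of Ucp1, Wt1, Msln and Upk3b (log2 minus the 75th percentile) on each of the 39 arrays, ordered by diet and time, with the low-Ucp1 arrays in red, the arrays of the other diet at the same time in blue and the other arrays in grey. Open circles are values not well above background, the diamond is HFC Week 12 by the authors' table, and a missing point on HF20 Week 15 or HF5 Week 12 is a spot left out as an outlier. Both red points lie below 0 for Ucp1 and above all other arrays for Wt1, Msln and Upk3b.

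In each pair many genes differed at least 2-fold. The share that did so in the same direction in both pairs cannot exceed the share in either pair. It is given without a share expected by chance. Of 19712 genes compared, 20.7% were at least 2-fold lower on LFC Day 10 than on HFC Day 10 and 15% were higher. On HFC Week 12, 21.7% were lower than on LFC Week 12 and 32.3% were higher. Lower in both pairs were 853 genes (4.33%), and higher in both were 1781 (9.04%). Which side held more genes moved with the processing: there were 1652 lower and 1378 higher with quantile normalization, 2080 and 1072 with HF75 Week 12 as partner, and 1530 and 856 with LFC Day 14 and HFC Week 15 as partners. A further 1560 genes differed in opposite directions. The median difference of all genes was -0.05 in the Day 10 pair and 0.23 in the Week 12 pair. Another 3032 genes were not compared because their spots were left out as outliers, of which 3004 on HFC Week 12. The pairs have opposite diets, so that a gene lower in both was lower with LFC at Day 10 and lower with HFC at Week 12.

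Brown fat heat production genes were lower on both low-Ucp1 arrays. Of the 14 genes of this list that could be compared, 9 were lower in both pairs, beside 4.33% of all genes, and 0 were higher. The 9 include Ucp1, which chose the arrays, and without it 8 of 13 were lower. Cidea, a lipid droplet protein of brown fat, was at 1.13 on LFC Day 10 and 6.01 on HFC Day 10 (29.4-fold lower), and at -0.29 on HFC Week 12 and 5.54 on LFC Week 12 (at least 57.0-fold lower). Cox7a1, a cytochrome c oxidase subunit of brown fat and muscle, was at 1.40 and 5.66 at Day 10 (19.3-fold) and at 0.38 and 5.58 at Week 12 (at least 36.6-fold). These genes were low on the same arrays as Ucp1, the gene that chose them. Cox8b, another such subunit, was at 1.29 and 5.34 at Day 10 and at -3.05 and 5.88 at Week 12. Fabp3, which binds fatty acids, was at 0.58 and 4.13 at Day 10 and at -0.11 and 5.53 at Week 12. Both subunits and Fabp3 read higher on the partner arrays, and 6 of the 14 genes were saturated on LFC Week 12, so their Week 12 differences are lower limits.

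The same list was not uniform at Day 10. Its median difference was -1.60 at Day 10 and -5.38 at Week 12 (-1.28 and -5.32 without Ucp1), and with the normexp background correction it was -0.42 at Day 10, under 2-fold. By gene, 9 of 14 genes were lower at Day 10 against 14 of 14 at Week 12. The partners were unlike too: the list mean was 0.37 on HFC Day 10 and 3.73 on LFC Week 12. It was -1.55 on LFC Day 10 and -2.61 on HFC Week 12. The part of the partners in the contrast between the pairs was not tested. Dio2, the deiodinase that activates thyroid hormone in brown fat, was at -0.50 on LFC Day 10 and -3.01 on HFC Day 10, which is 5.67-fold higher on the low-Ucp1 array, and at -2.99 on HFC Week 12 and 0.53 on LFC Week 12, which is 11.4-fold lower. Kcnk3, a potassium channel, Slc27a2, a fatty acid transporter, Gyk, glycerol kinase, and Acot11, a thioesterase, differed by less than 2-fold at Day 10, from -0.02 to 0.77 on the log2 scale. Elovl3, an elongase, and Otop1, a proton channel, were not well above background on either Day 10 array. Elovl3 was at 2.69 and Otop1 at 3.27 on LFC Week 12, and neither was well above background on HFC Week 12. The low Ucp1 of LFC Day 10 thus came with low Cidea, Cox7a1, Cox8b and Fabp3 while 5 of the 14 genes were not lower there.

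Regulators of brown fat identity were lower in few cases. Of 12 compared, 2 were lower in both pairs, beside 4.33% of all genes, and 0 higher, with medians of -0.51 at Day 10 and -3.03 at Week 12. The Week 12 median was -0.36 against HF5 Week 12, -0.86 against HF75 Week 12 and -0.89 against HFC Week 15, so its size rested on the partner. The 2 were Ppara, a receptor for fatty acids, at -1.43 and 0.75 at Day 10 and at -2.22 and 4.43 at Week 12, and S100b, a secreted calcium-binding protein, at 2.68 and 3.76 and at 1.92 and 5.50. Prdm16, a coregulator that directs brown fat fate, was at 1.21 and 1.08 at Day 10 and at 0.52 and 1.78 at Week 12. Ppargc1a, a coactivator of mitochondrial genes, was at 0.24 and -0.52 and at -1.41 and 2.87. Neither Prdm16 nor Ppargc1a was lower on LFC Day 10. Zic1 was not well above background on LFC Day 10 (-7.69, against -1.08 on HFC Day 10, at least 20.0-fold lower) and was left out as an outlier on HFC Week 12, and elsewhere it ranged from -3.00 to 0.54 and was well above background on 35 arrays. Lhx8, another brown fat transcription factor, was not well above background on either Day 10 array or on HFC Week 12.

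Genes that burn fatty acids followed in part, and the lists are not separate, since Cpt1b is also in the heat production list. Of 18 fatty acid oxidation genes, 10 were lower in both pairs, beside 4.33% of all genes, and 0 higher, with medians of -1.14 at Day 10 and -3.77 at Week 12. Hadha, a subunit of the trifunctional protein, was at 0.67 and 3.13 at Day 10 (5.50-fold lower) and at -1.20 and 3.65 at Week 12 (28.9-fold lower). Cpt1b, the muscle and brown fat form of the carnitine transferase that admits fatty acids to mitochondria, was at -0.82 and 0.29 and at -2.0 and 5.12. Cpt1a, the liver form of that enzyme, was at 2.06 and 1.47 at Day 10 and at 1.99 and -0.13 at Week 12. The forms thus pointed in opposite directions on HFC Week 12. Of 83 respiratory chain genes, 14 (16.9%) were lower in both pairs and 1 higher, with medians of -0.35 and -2.01. The 1 was Cox8c, and the 14 included the muscle and brown fat subunit Cox6a2, at -3.05 and -0.19 at Day 10 and -2.88 and 4.28 at Week 12. Saturation on LFC Week 12 touched 63 of the 83 genes and 12 of the 18.

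Skeletal muscle genes were lower on the same arrays. Of 13 compared, 7 were lower in both pairs, beside 4.33% of all genes, and 0 higher, with medians of -1.21 and -6.53. Mylpf, a fast muscle myosin light chain, was at -2.16 and 0.91 at Day 10 and at -2.07 and 4.44 at Week 12. Myl1, another light chain, was at -0.06 and 2.91 and at -0.82 and 5.71. The mean level of the 14 genes of the list was -1.36 on LFC Day 10 and -2.08 on HFC Week 12, and ranged from -3.87 to 5.19 on the other arrays, with the highest on HF20 Week 12. Muscle genes were thus low on these arrays but not outside the range of the others, and their part in the low values of genes that muscle shares with brown fat, such as Cox7a1, Fabp3 and Cpt1b, was not tested. In total RNA of mixed cells, fewer cells of a type and less RNA per cell cannot be told apart.

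Mesothelial genes were higher on both low-Ucp1 arrays. Of 16 genes, 14 were higher in both pairs, beside 9.04% of all genes, and 0 were lower, with medians of 4.39 at Day 10 and 7.73 at Week 12. All 16 were well above background on both low-Ucp1 arrays, against 7 on HFC Day 10 and 9 on LFC Week 12. Of all spots, 68.7% were so on LFC Day 10, 91.6% on HFC Week 12, 58.3% on HFC Day 10 and 74.4% on LFC Week 12. The keratins Krt8 and Krt18 pair into the filaments of simple epithelia. Krt8 was at 5.99 on LFC Day 10 and 4.76 on HFC Week 12, and was not well above background on either partner, which gives at least 906-fold and at least 3444-fold. The second Krt8 probe was at 6.46 and 4.47 on the low-Ucp1 arrays and at -4.39 and -5.89 on the partners. Krt18 was measured on all 4 arrays, at 7.07 and -1.07 at Day 10 (283-fold) and at 4.68 and -5.67 at Week 12 (1300-fold). Keratins are shared by many epithelia, so the genes nearer to mesothelium follow.

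Wt1 was at least 21.2-fold higher at Day 10 and at least 350-fold at Week 12. Msln was 66.6-fold higher at Day 10 and at least 2156-fold at Week 12, and Upk3b was at least 21.3-fold and at least 214-fold higher. Muc16, the large mucin shed by mesothelium, was at 0.54 on LFC Day 10 and 1.63 on HFC Week 12 and was not well above background on either partner. Rspo1, a secreted Wnt enhancer, was at 5.56 and -0.23 at Day 10 and at 4.74 and -1.99 at Week 12 (55.5-fold and 106-fold). Gpm6a, a membrane glycoprotein, was at 0.47 and -2.94 and at 1.80 and -5.93. Lrrn4, a leucine-rich repeat protein, was at -0.45 on LFC Day 10 and -1.66 on HFC Week 12. The exceptions to the block were Bnc1 and Cldn15. Bnc1, a zinc finger protein of mesothelium and keratinocytes, was at -3.41 on LFC Day 10 and at -2.49 on HFC Week 12 and exceeded the limit of its dim partner by 0.43 and 4.50. Cldn15, a tight junction protein, was at 1.70 and 2.11 at Day 10 and at 1.86 and -0.15 at Week 12.

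Genes used to tell visceral from subcutaneous fat did not all point one way. Of 3 visceral genes compared 3 were higher in both pairs, and of 5 subcutaneous genes 2 were higher and 1 lower, beside 9.04% and 4.33% of all genes. Tcf21, a factor of visceral fat stroma, was at 1.07 on LFC Day 10 and -0.49 on HFC Week 12 and was not well above background on either partner (at least 28.2-fold and at least 90.4-fold). Elsewhere Tcf21 was well above background on 5 arrays and reached -0.30 on HFC Day 14, so HFC Week 12 lay within that range. Aldh1a2, an enzyme of retinoic acid synthesis made by mesothelium and visceral stroma, was at 0.73 and -2.36 at Day 10 and at 1.31 and -4.62 at Week 12. Gata6 was at 1.31 and 0.19 and at 1.13 and -1.74. All 3 were higher in both pairs. Gata4 was not well above background on either Day 10 array, and Nr2f1, another visceral factor, was dim on all 39 arrays. Of the genes used for subcutaneous fat, Tbx15, which brown fat also expresses, was not well above background on LFC Day 10 and was at -3.91 on HFC Week 12, against -2.74 and -2.29 on the partners. Hoxc9, a positional gene of white fat, was at -0.21 on LFC Day 10 and 0.15 on HFC Week 12, above the highest other reading of -1.78. Tbx1 was at 0.08 and -0.53, above the highest other level of -1.58.

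Hox genes record the position of a tissue along the body axis. Of 22 Hox genes compared, 7 were higher in both pairs, beside 9.04% of all genes, and 0 lower, with medians of 0.81 and 0.47. They were Hoxa11, Hoxb6, Hoxb7, Hoxb9, Hoxc9, Hoxd4 and Hoxd9. Hoxb9 was at 0.41 and -2.19 at Day 10 and at -0.45 and -5.35 at Week 12, while Hoxb7 was at 2.01 and 0.01 and at 1.11 and -1.0. Of these 7, Hoxc9 lay above all other 37 arrays on both low-Ucp1 arrays. So did Hoxa7, at 2.44 and 2.40 against a highest of 2.24, although it was not 2-fold higher at Week 12.

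Genes of the male reproductive tract were also higher in both pairs. Of 12 genes of epididymis and seminal vesicle, 11 were higher in both pairs, beside 9.04% of all genes, and 0 lower, with medians of 4.66 at Day 10 and 4.43 at Week 12. Crisp1, a sperm-coating protein of the epididymis, was at 2.32 on LFC Day 10 and 3.39 on HFC Week 12, and elsewhere at most at -2.57. Adam7, an epididymal membrane protein, was at 0.82 and 0.08, and elsewhere at most at -1.93. These 2 genes stood above all other arrays. Gpx5, the epididymal glutathione peroxidase, was at 5.67 on LFC Day 10 and -1.41 on HFC Week 12, and Lcn5, an epididymal lipocalin, at 4.15 and -2.73. The tract genes were therefore not equally high on both: the list mean was 0.07 on LFC Day 10, above the other 37 arrays (at most -1.87, on HF5 Week 18), and -2.23 on HFC Week 12, within their range. The seminal vesicle gene Svs5 was at -4.04 on LFC Day 10 and -1.88 on HFC Week 12 and reached 4.97 on another array, and Svs4 was dim on both.

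Of 9 testis genes, 6 were higher in both pairs, beside 9.04% of all genes, and 0 lower, with medians of 2.66 and 2.33. Ldhc, the lactate dehydrogenase of sperm, was at 3.64 on LFC Day 10 and -2.62 on HFC Week 12 and was not well above background on any other array. Prm2, a protamine of sperm chromatin, was at 3.86 and -2.95 at Day 10 and at 0.05 and -5.22 at Week 12. Smcp, a sperm mitochondrial protein, was at 0.95 and -3.28 and at -2.33 and -6.87. Odf1 and Akap4, of the sperm tail, were not well above background on LFC Day 10, and Tnp2 differed by 0.02 and 0.39. On HFC Week 12 all 11 testis genes were well above background, against 8 on LFC Day 10. Of all spots, 91.6% were so on HFC Week 12 and 68.7% on LFC Day 10, so these counts say little about the testis genes. The part of these tissues in the other differences was not tested.

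Genes measured on all 4 arrays were also ranked by their difference in both pairs, apart from the lists. Those with the largest difference included heat production and mesothelial genes and genes of neither list. On the lower side these were Ucp1, Cidea, Cox7a1, Cox8b, Acsm3, Ttn, Fabp3, Mb, Slc4a7 and Myoz2. Mb, myoglobin, was at -2.79 and 0.64 at Day 10 (10.8-fold lower) and at -4.53 and 4.69 at Week 12 (597-fold lower). Acsm3, which activates medium-chain fatty acids in mitochondria, was at -3.68 and 0.34 and at -2.93 and 3.35. Ttn and Myoz2 are sarcomere genes, and with Mb 3 of the 10 are muscle genes. For Ttn, 1 of 3 other measurable probes had the same sign in both pairs, and for Slc4a7, a bicarbonate transporter, 1 of 2. On the higher side they were Krt18, Fam183b, Fam40b, Sox9, Rspo1, Cldn7, Pipox, Fgf2, Nkain4 and Prm2. Sox9, a transcription factor of many epithelia, was at 3.98 and -2.82 at Day 10 (111-fold higher) and at 1.96 and -3.90 at Week 12 (58.2-fold higher), and both of its other probes had the same sign. The other measurable probe of Fam40b and of Fgf2 did not. Cldn7, a tight junction protein, was at 3.46 and -3.31 and at 1.52 and -4.24.

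Detection was uneven. On both low-Ucp1 arrays and neither partner, 871 genes were well above background, and on both partners and neither low-Ucp1 array, 34. The 6 named by their mean level among the 871 were Krt8, Akr1b7, Spink8, Ccdc153, Calml3 and Crisp1. Akr1b7, an aldo-keto reductase known from the vas deferens and adrenal, was at 5.63 on LFC Day 10 and 5.04 on HFC Week 12, at least 707-fold and at least 4193-fold above its partners. Spink8, a protease inhibitor, was at 4.74 and 3.28, and Calml3, a calmodulin-like protein of epithelia, at 3.46 and 3.40. Among the 34 they were Trdn, Col19a1, Hpcal4, Olfr1413, Brsk2 and Prox2, with levels from -3.66 to -1.99 on HFC Day 10, and the other measurable probe of Col19a1 did not share its sign in both pairs. The higher share of spots above background on both low-Ucp1 arrays moves in the same direction as these counts, and its part in them was not tested.

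**Figure D3:**
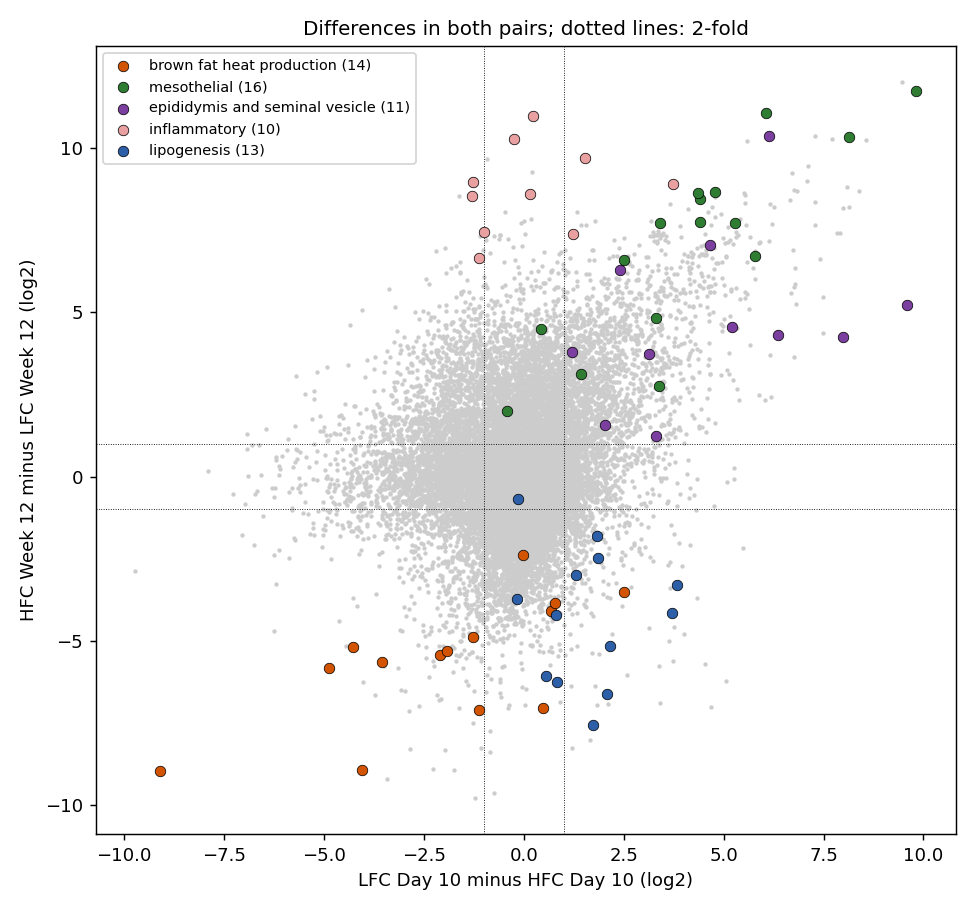
Difference of LFC Day 10 minus HFC Day 10 (x axis, log2) against HFC Week 12 minus LFC Week 12 (y axis, log2) for the genes compared (grey), with 5 lists in colour and 2-fold marked by dotted lines. Mesothelial and reproductive tract genes lie at the upper right, Ucp1, Cidea, Cox8b, Cox7a1 and Fabp3 at the lower left, lipogenesis genes at the lower right or near 0, and inflammatory genes at the top around 0 of the x axis.

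The other arrays give a wider frame than 1 partner each. Of 18989 genes compared with them, 57 (0.3%) lay below all other 37 arrays on both low-Ucp1 arrays, and 350 (1.84%) lay above. Of the mesothelial list 9 were above: Wt1, Msln, Upk3b, Krt8, Krt18, Krt19, Nkain4, Muc16 and Rspo1. Of the heat production list 5 were below: Ucp1, Cidea, Cox7a1, Cpt1b and Fabp3. The largest gaps above the nearest other array were 5.80 for Akr1b7, 4.24 for Calml3, 4.15 for Msln, 4.11 for Spink8, 3.96 for Ccdc153 and 3.89 for Krt8. The largest gaps below were 4.64 for Ucp1, 0.92 for Cidea, 0.77 for Apoo-ps, 0.68 for Mb, 0.65 for Cpt1b and 0.59 for Samd10. The sides had unlike rules, so their counts and gaps cannot be set against each other. Above required detection on the low-Ucp1 arrays only, and below required it on all other measured arrays. With detection on at least 19 of the others, 142 genes were below. Among the named genes below the range, Ucp1, the selecting gene, was alone with a gap over 1. HF20 Week 15, with 71.4% of its spots left out, was the nearest array for Ucp1, Cidea, Cox7a1 and Fabp3. Without the arrays with over 10% of spots left out, 364 genes were above and 197 below, 7 of the latter from the heat production list.

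The general fat cell genes had medians of opposite sign in the pairs. Of 18 general adipocyte genes, 4 were lower in both pairs and 1 higher, beside 4.33% and 9.04% of all genes, with medians of 0.48 at Day 10 and -2.46 at Week 12. The 4 were Pnpla2, a triglyceride lipase, Pparg, the receptor that drives fat cell formation, Lpl, lipoprotein lipase, and Cd36, a fatty acid transporter. Adipoq, adiponectin, was at 4.16 on LFC Day 10 and 3.20 on HFC Day 10, and at 2.72 on HFC Week 12 and 5.67 on LFC Week 12. Agt, angiotensinogen, was the 1 higher gene, at 3.61 and 0.68 and at 2.69 and -2.88, and was above all other 37 arrays. Lipogenesis genes took opposite directions in these pairs: 8 of 13 were higher at Day 10 and 12 of 13 lower at Week 12, with medians of 1.72 and -4.17, and 0 kept 1 direction. Scd1, the desaturase, was at 5.02 and 1.18 at Day 10 and at 2.42 and 5.73 at Week 12. In both pairs Scd1 was higher with LFC, whichever array had the low Ucp1. The direction at Day 10 moved with the partner. Over the genes each pair allowed, the median was 1.51 against HFC Day 10, -0.60 against LFC Day 6 and -1.21 against LFC Day 14. LFC Day 6 and LFC Day 14 had the diet of LFC Day 10 itself, so only the first of these medians compares diets. At Week 12 the median was 0.09 against HF5 Week 12. Of the 13 genes, 10 were saturated on LFC Week 12.

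The labelled cell type, macrophages, was then checked on its own markers. All 21 macrophage genes were well above background on LFC Day 10, and 20 on HFC Week 12, where the other was left out. The shares of all spots were 68.7% and 91.6% on these arrays. Of 20 compared, 1 was higher in both pairs, a share below the 9.04% of all genes, and 0 lower. The medians were -1.02 at Day 10 and 3.49 at Week 12. Cd68, a lysosomal protein of macrophages, was at -0.77 and 0.56 at Day 10 and at 2.35 and -1.87 at Week 12, where the highest other array was at 1.89. The list mean was 0.44 on LFC Day 10, near the median of 0.77 of the other 37 arrays, and 3.01 on HFC Week 12, above their highest of 2.39. Trem2, a lipid receptor of macrophages, was the 1 gene higher in both pairs, at 1.76 and 0.60 and at 4.15 and -0.85. The macrophage mean was thus above the other arrays on HFC Week 12 and inside their range on LFC Day 10.

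Inflammatory genes were higher on HFC Week 12 than on LFC Week 12. Of 11 compared, 3 (Ccl4, Ptgs2 and Saa3) were higher in both pairs, beside 9.04% of all genes, and 0 lower, with medians of -0.04 at Day 10 and 8.61 at Week 12. The contrast between the pairs rested on the partners: LFC Day 10 had medians of 2.14 against LFC Day 6 and 2.33 against LFC Day 14, and HFC Week 12 had 0.69 against HFC Week 15. Saa3, an acute phase protein, was at 2.22 and -1.51 at Day 10 and at 1.99 and -6.94 at Week 12. Tnf, the cytokine, was at 0.20 and 0.04 and at 3.29 and -5.32. Ccl4, a chemokine, was at 4.71 and 3.17 and at 6.06 and -3.65. Tnf, Ccl4 and Saa3 were above all other 37 arrays on both. T cell, B cell, neutrophil and mast cell lists were lower at Day 10 (medians from -2.96 to -1.54) and higher at Week 12 (1.83 to 3.85). Schwann cell genes, of the cells that wrap nerves, had medians of -5.12 and 0.40. Mbp, the myelin basic protein, was at -2.29 and 4.67 at Day 10 and at -1.95 and -1.10 at Week 12, below all other 37 arrays on both. Of 6 smooth muscle genes 3 were higher in both pairs, beside 9.04% of all genes, and 0 lower, among them Acta2, at 8.55 and 6.74 and at 5.99 and 2.19.

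**Figure D4:**
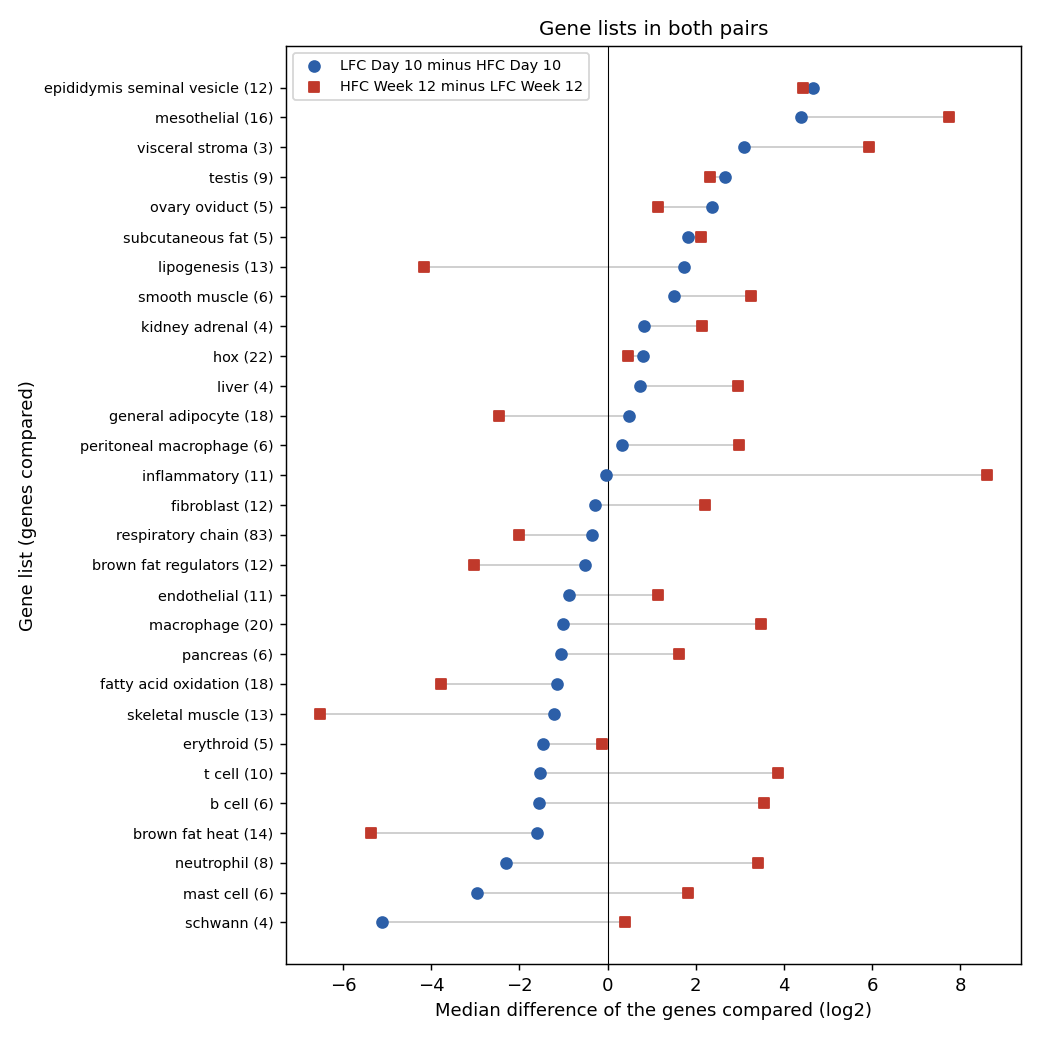
Median difference (log2) of the genes compared in each list, with the number of genes in parentheses, for LFC Day 10 minus HFC Day 10 (blue circles) and HFC Week 12 minus LFC Week 12 (red squares). Both points lie far right for the epididymis (4.66 and 4.43) and mesothelial lists (4.39 and 7.73) and left for the heat production list (-1.60 and -5.38), and they lie on opposite sides of 0 for the macrophage, T cell, B cell, lipogenesis and general adipocyte lists.

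The size of the Week 12 differences moved with the partner. HFC Week 12 was set beside 6 arrays, the other 4 of Week 12 and HFC at Week 9 and Week 15, and from 26.3% of genes (HFC Week 15) to 64.2% (HF5 Week 12) differed at least 2-fold, with 57.2% for LFC Week 12. The median of the inflammatory list lay between 0.69 (HFC Week 15) and 8.61 (LFC Week 12). The mesothelial median lay between 3.90 (HF75 Week 12) and 7.73 (LFC Week 12), and the heat production median between -6.04 (HF20 Week 12) and -2.85 (HF75 Week 12), each over all genes of the list that the pair allowed. Both kept their direction with all 6 partners, and the epididymis median lay between 0.64 (HF5 Week 12) and 4.43 (LFC Week 12). On LFC Day 10 the mesothelial median was 4.39 against HFC Day 10, 3.69 against LFC Day 6 and 3.32 against LFC Day 14, and the heat production median was -1.60, -2.06 and -2.73.

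The low-Ucp1 arrays were also most like each other. Over the 4803 genes well above background on all 39 arrays, their correlation was 0.914, the highest that either had with any of the other 38. The next was LFC Week 3 for LFC Day 10 (0.894) and HFC Week 15 for HFC Week 12 (0.897), and the medians were 0.847 and 0.834. LFC Day 10 was least like LFC Week 12 (0.646), the partner of the other array. These values are read as an order and not as a distance. On the mean of the heat production list, LFC Day 10 was at -1.55 and HFC Week 12 at -2.61, and the other arrays lay between -0.56 and 4.58. The mean includes Ucp1, which chose the arrays, and without it the values were -1.44 and -2.57, against -0.91 to 4.45. On the mean of the mesothelial list they were at 1.55 and 1.48, and the others between -6.84 and 0.10.

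**Figure D5:**
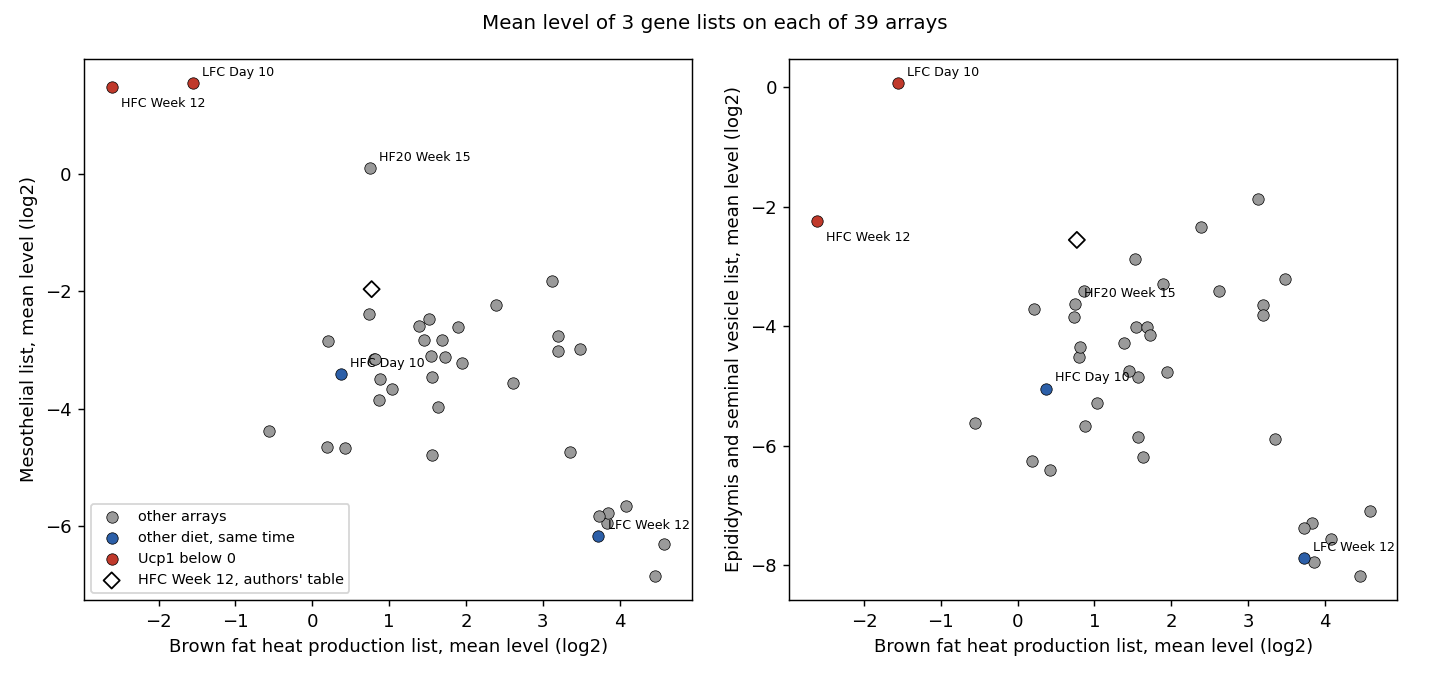
Mean level (log2 minus the 75th percentile) of the heat production list (x axis) against the mesothelial list (left) and the epididymis and seminal vesicle list (right) on each of the 39 arrays, with the low-Ucp1 arrays in red, their partners in blue and HFC Week 12 by the authors' table as a diamond. Both red points lie apart at the upper left of the left panel, while the diamond lies among the other arrays (0.77 and -1.96). HF20 Week 15, at 0.10 for the mesothelial list, had 71.4% of its spots left out.

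Since the low arrays belong to opposite diets, they pull the comparison of diets in opposite directions. Over the 10 time points shared by LFC and HFC, the mean of HFC minus LFC for Ucp1 was 0.40 with an SD of 4.44 over time points. It was -0.57 without Day 10, 1.44 without Week 12 and 0.49 without both, when the SD was 1.41. HFC was higher by 9.1 at Day 10 and lower by at least 8.97 at Week 12, and differed by -1.38 to 2.79 at the other 8 time points. Ucp1 was saturated on LFC Week 12 and HFC Week 9, so the means that include these times rest on limits. The study counts weeks from Day 14, which makes Day 14 and Week 0 the same time, and with both averaged the mean over 9 times was 0.41 (SD 4.71). Wt1, Msln and Upk3b were not well above background on either array at 8, 5 and 7 of the 10 time points, so no mean over time is given for them.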

How the data were processed

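RNA of brown fat stromal vascular cells was measured on 39 Agilent arrays of 1 colour, labelled with Cy3. Samples were grouped by diet and time as the labels give them, with 1 array each, and HF20 Week 12 by its title and source name. Per the file headers, the deposited scanner files hold background-subtracted spot intensity from Agilent Feature Extraction 10.5.1.1, with no normalization between arrays, whereas the submitters' processing notes name version 9.1. The authors' value table holds log2 values, as differences between each array and a reference array of the same time. The study's methods name Agilent GeneSpring GX for the normalization and count weeks from Day 14. The table served as an alternative and to check the scanner files. The reference is LFC, but HFC at Day 14, so that the sign of Day 14 was turned, and the 4 columns of Week 6 had no reference. No columns of sample values were left unused (0).

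The processed intensity was taken as log2, minus the 75th percentile of the array. Spots marked as outliers were dropped, spots of a probe averaged, and the brightest probe taken for each of 29411 gene names, of which 23643 matched a RefSeq name. A probe was well above background when at least 0.5 of its kept spots were. Where 1 array of a pair was dim, its value was the higher of its own and the lowest signal well above background. Where both were dim no comparison was made. A gene was called different at 2-fold. Above the other 37 arrays required detection on both low-Ucp1 arrays, and below required it on all other measured arrays. Arrays have no read depth, and a median of 57.3% of spots were well above background (31.2% to 98.0%).

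Named genes were those of 30 lists, the 10 with the largest smaller difference in each direction, and the 6 by each detection and range rule. Clone and locus names were left out. The selection of arrays, the lists and the rules were made with earlier results of these data known. No test was run, because the arrays were chosen by a measured value and had no replicates. Alternatives were the background correction (normexp, offset 50, limma 3.58.1 in R 4.3.3), scaling, filters, probes, fold, partners, the authors' table and, added after seeing the data, leaving out the 9 arrays titled BA or BAT, leaving Ucp1 out of the heat production list and averaging Day 14 with Week 0. The counting was tested on simulated data. Computation used Python 3.11.15, numpy 2.4.6, pandas 2.3.3 and matplotlib 3.10.9.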

Additional observations from a re-analysis of the deposited data

Results flagged for a closer look

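HFC minus LFC had opposite signs at Day 10 and Week 12, which differ in which diet holds the low-Ucp1 array. This follows from how the arrays were selected for Ucp1 (9.1, and -8.97 as a limit, since LFC Week 12 was saturated), and the difference between the time points was not tested for any of these values. Wt1 differed by -4.41 and 8.45, Msln by -6.06 and 11.07 and Upk3b by -4.41 and 7.74, where the dim partner was set at its limit. The list medians were 1.60 and -5.38 for heat production, -4.39 and 7.73 for the mesothelial list, -4.66 and 4.43 for epididymis and seminal vesicle, 1.14 and -3.77 for fatty acid oxidation, and 1.21 and -6.53 for skeletal muscle.

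Within the diets that had 6 or 10 arrays, a Ucp1 level stood far from the rest on 2 arrays. LFC Day 10 at -3.16 had a gap of 0.571 of the range of the 10 LFC arrays, which is a description only because the array was selected on this value. HF20 Week 15 at 1.48 had a gap of 0.672 of the range of 6, and 71.4% of its spots were left out. Among groups of replicates, chance marks about 1 in 20 in this way. The arrays here were of different times and not replicates. The rule was also applied to Wt1, Msln and Upk3b, at both ends, so that rate does not carry over. The rule had limits for groups of 6 and 10 arrays only, so it was not applied to the 11 HFC arrays. Among those, HFC Week 12 was at -3.18 and the next lowest, HFC Day 6, at 4.63. HFC Week 12 was also selected on this value.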

How the results depend on the processing

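The alternatives gave 196 values for 19 results. Of these, 144 moved by less than the spread over the other 37 arrays (counts by less than 1.5 times), and 52 moved by more. For the mean HFC minus LFC of Ucp1 the spread was instead the SD over time points, 4.44. That SD includes Day 10 and Week 12, and was 1.41 without both. No difference of 2-fold or more changed sign, but the mean HFC minus LFC of Ucp1, which is under 2-fold, went from 0.40 to -0.57 without Day 10. No paired analysis was possible because each diet, as grouped here, had 1 array under each time label and the selected arrays were not tested.

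With normexp, 456 genes were lower and 1120 higher in both pairs. The mesothelial median was 1.41 at Day 10 and 5.72 at Week 12, Ucp1 differed by -5.29 at Day 10, the heat production median was -0.42 at Day 10, Wt1 differed by 1.49 and 5.79, Msln by 3.08 and 8.15 and Upk3b by 1.58 and 5.09. With quantile normalization 1652 genes were lower and 1378 higher, and at Week 12 Ucp1 differed by -11.17 and Upk3b by 5.95. With detection on all 4 arrays 1057 genes were higher. With no filter on dim probes Wt1 differed by 6.23 and 10.57 and Upk3b by 6.72 and 10.00. At 4-fold, 125 genes were lower and 744 higher.

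By the authors' table Wt1 differed by 6.22 and Upk3b by 6.72 at Day 10. At Week 12 the heat production median was -3.06, the mesothelial median 5.32, Ucp1 -0.59, Wt1 5.29 and Msln 6.06, from a column that does not match the scanner file. The table gave 905 genes lower and 2024 higher. All these values use the detection calls of the scanner files, and dim values were not raised to a limit. They thus mix both sources. The mesothelial mean that the table implies for HFC Week 12 was -1.96, inside the range of the other 37 arrays (-6.84 to 0.10).

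The partner medians here cover the genes compared in both pairs. Against HF5 Week 12 they were -1.79 (heat production), -0.36 (regulators) and 3.98 (mesothelial), with Wt1 5.83 and Upk3b 4.05. Against HF75 Week 12, 2080 genes were lower and 1072 higher, with medians of -2.11, -0.86 and 3.90, Wt1 4.26, Msln 5.69 and Upk3b 3.55. Against LFC Day 14 and HFC Week 15, 1530 were lower and 856 higher, with Week 12 medians of -2.92, -0.89 and 4.30, Wt1 6.14, Msln 6.99 and Upk3b 5.43.

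Below the other arrays were 197 genes without the arrays with over 10% of spots left out, 142 with detection on at least 19 of the others, and 134 without the arrays titled BA or BAT (chosen after seeing the data). Leaving Ucp1 out of the heat production list and averaging Day 14 with Week 0 were also chosen after seeing the data. The cause of these moves was not tested. Dim genes have only limits on most arrays, saturation on LFC Week 12 holds down its strongest genes, and single arrays give no measure of error.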
